A study of Mus musculus with 2 samples.

Results

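The 4 genes of lectin-triggered innate immunity followed here in the late fetal mouse ureter were the collectins Colec10, Colec11 and Colec12 and the lectin-associated serine protease Masp1. They were found by their gene name among the non-control spots of 2 two-colour arrays, which gave 5 probes (1 each for the collectins, 2 for Masp1) of 39429 on the array (4 genes of 31870 named features). The genes were chosen by their place in the family of Colec11, whose log2 ratio in this comparison was already known to be low, so their ratios are described here without a test. All 4 genes had a probe that passed the filter on dim probes described below, while 1 of the 5 probes did not pass.

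Total RNA came from dissected ureters of NMRI mouse embryos at E18.5. Each array carried RNA of Rbpj-cKO embryos, Tbx18(cre/+);Rbpj(fl/fl), in one channel and of control embryos, Rbpj(fl/?), in the other, so a floxed Rbpj allele is common to both groups and the second control allele is not specified. The embryos were male on one array and female on the other, with 1 array each. The Rbpj-cKO RNA was in the red channel (AlexaFluor647) on the male array and in the green channel (AlexaFluor555) on the female array, so sex and dye orientation cannot be told apart. Rbpj encodes the transcription factor that Notch receptors use in the nucleus, and Tbx18-driven cre acts in the mesenchyme around the ureter and in cells derived from it. Urothelial cells are outside that domain. How many embryos stand behind each RNA is not stated, and any spread quoted is between the 2 arrays.

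Collectins are lectins with a collagen-like tail and a carbohydrate recognition domain of the C type. Colec10 (CL-L1) and Colec11 (CL-K1) are secreted, assemble with each other and bind sugars on microbes and damaged cells. Masp1 encodes serine proteases that travel with such lectins and start the lectin pathway of complement, and its transcripts are spliced into several products. Colec12 (CL-P1) is different in that it is a membrane scavenger receptor. In humans, mutations of COLEC10, COLEC11 or MASP1 cause a syndrome of facial and other developmental defects, and in zebrafish Colec11 guides migrating neural crest cells.

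The stretches of the array probes that carry the measurements are shown because 1 oligonucleotide stands for each collectin and because the 2 Masp1 probes did not behave alike. Each is given as the first 30 of its 60 bases, 5′ to 3′ as deposited, with the mm9 position of the whole probe. No part is in capitals. The Colec11 probe A_51_P174275 lies at chr12:29279240-29279299 (minus strand), the Colec10 probe A_51_P144160 at chr15:54297813-54297872 (plus strand), and the Masp1 probes A_51_P472879 and A_52_P216226 at chr16:23449609-23449668 and chr16:23452460-23452519 (minus strand), with starts 2851 bases apart. The exon or untranslated region that each probe lies in was not analysed here.
Colec11: attatggctaaccactcggaaggatgctgt
Colec10: ggtgattctagcagatgctcattcagtctg
Masp1, brighter probe: tccaggcaactgaaatctacctcccgagaa
Masp1, dimmer probe: gagtctattcttacatctatcccaacaagg

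Colec11 had the lowest ratios of the 4 genes. Its normalised intensity was 632 on the male array and 606 on the female array in Rbpj-cKO ureters, against 2819 and 2146 in control ureters. The genotypes did not overlap, and the Rbpj-cKO values lay close together while the control values differed more. Intensities here are on a linear scale, after background correction, loess within each array and scaling between arrays, and are comparable between channels of 1 probe only. In Rbpj-cKO ureters the mean was 619 ± 18.9, and in control ureters it was 2482 ± 476 (SD, n = 2 each). The log2 ratio of Rbpj-cKO over control was -2.16 on the male array and -1.82 on the female array (mean -1.99, SD 0.23, n = 2). This mean is a level 3.97-fold lower in Rbpj-cKO than in control ureters. Expressed per array, the level was 4.46-fold lower on the male array and 3.54-fold lower on the female array. In ureter RNA, fewer cells that express Colec11 and less Colec11 RNA per cell cannot be told apart.

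**Figure D1:**
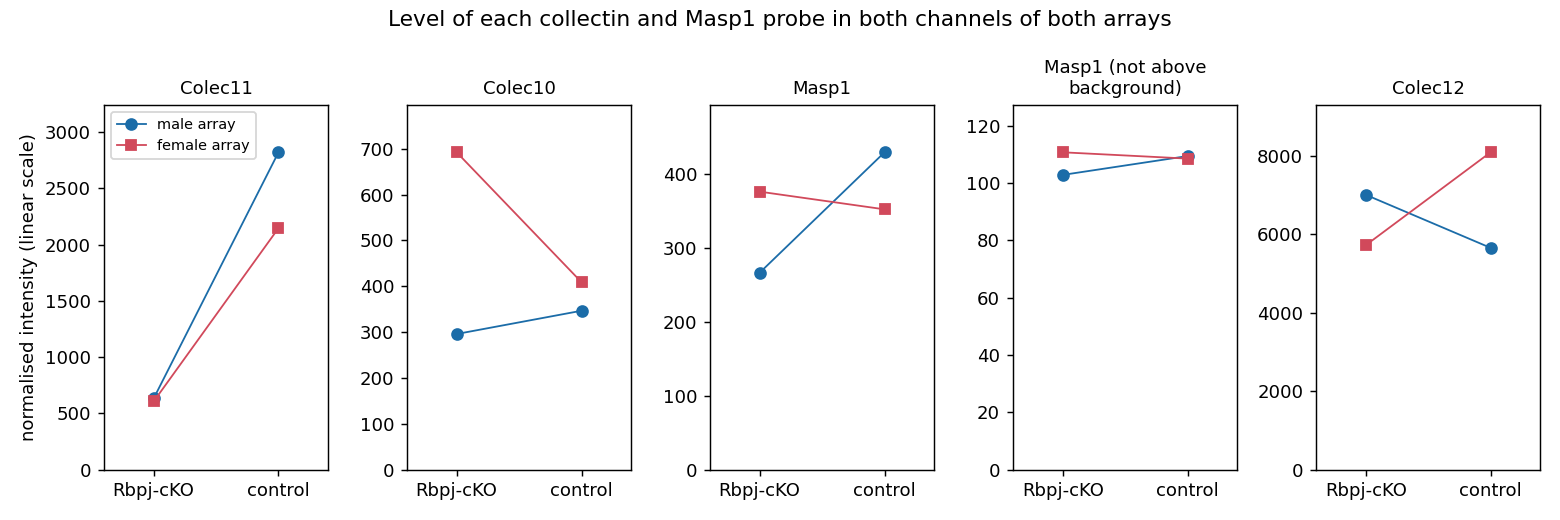
Normalised intensity (linear scale, from 0) of the 5 probes of Colec11, Colec10, Masp1 and Colec12 in Rbpj-cKO and control channels; each line joins the 2 channels of 1 array, male as blue circles and female as red squares. Both Colec11 lines lie lower in Rbpj-cKO (632 and 606, against 2819 and 2146 in control). For Colec10, the brighter Masp1 probe and Colec12 the 2 arrays run in opposite directions. The dimmer Masp1 probe was not above background, so no direction is read from it.

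Set against the rest of the array, the Colec11 mean ratio was at rank 2 from the lowest of 20989 features tested. On the male array 0.0143% of features had a lower ratio, and on the female array 0.0715% did. Signal was well above background in all 4 channels of the Colec11 probe, which is the scanner software's own call. The spot's mean signal was 8.30 times its local background in the Rbpj-cKO channel of the male array and 14.2 times on the female array, against 76.8 and 30.7 times in the control channels.

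Across all features, a limma fit on both arrays (threshold 0.05 after Benjamini-Hochberg adjustment) called 0.124% of features in either direction, 18 lower and 8 higher in Rbpj-cKO ureters. With 1 residual degree of freedom these adjusted p-values are optimistic. Of the 4 genes, 1 was called, Colec11, and the other 3 were not. Because Colec11 led to the choice of the family in this same contrast, nothing is read from that count. The Colec11 call was lost when arrays were centred on the median, when the scanner's processed signals or the authors' value table were used, and when dim probes were kept, although its mean ratio was between -2.17 and -1.94 under every alternative signal or scaling. Likewise, 0.434% of features were at least 1.5-fold lower on both arrays, and Colec11 was the 1 of the 4 genes among them.

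Colec10, the partner of Colec11 in circulating heteromers, did not share its pattern. Its normalised intensity was 296 on the male array and 692 on the female array in Rbpj-cKO ureters, against 347 and 409 in control ureters. The genotypes overlapped, with the Rbpj-cKO channels giving both the lowest and the highest of the 4 values. The log2 ratio was -0.23 on the male array and 0.76 on the female array (mean 0.27, SD 0.70, n = 2), so the difference between genotypes was smaller than the spread between arrays. On the female array 98.8% of features had a lower ratio than Colec10, and on the male array 17.7% did.

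Masp1 was represented by a probe assigned in the files to an Ensembl transcript and by a probe assigned to its RefSeq transcript. At the first, the normalised intensity was 266 on the male array and 376 on the female array in Rbpj-cKO ureters, against 429 and 352 in control ureters. These values overlapped, since the female Rbpj-cKO channel lay above the female control channel. The log2 ratio was -0.69 on the male array and 0.09 on the female array (mean -0.30, SD 0.55, n = 2), with the level on the male array 1.61-fold lower in Rbpj-cKO ureters. With the scanner's processed signals the male ratio was -1.27 and the female ratio 0.28, so the size of the male difference depended on the processing. The second Masp1 probe was not well above background in any of the 4 channels, with intensities of 103 and 111 in Rbpj-cKO ureters and 109 and 109 in control ureters, and no fold is given for it. Its signal was between 1.08 and 1.64 times the local background.

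Colec12, the membrane collectin, gave bright signals in both genotypes. Its normalised intensity was 7001 on the male array and 5715 on the female array in Rbpj-cKO ureters, against 5649 and 8082 in control ureters. Here too the genotypes overlapped, and the 2 arrays differed in direction. The log2 ratio was 0.31 on the male array and -0.50 on the female array (mean -0.10, SD 0.57, n = 2). The mean spot signal was between 80.1 and 147 times the local background, so dimness does not limit this probe.

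**Figure D2:**
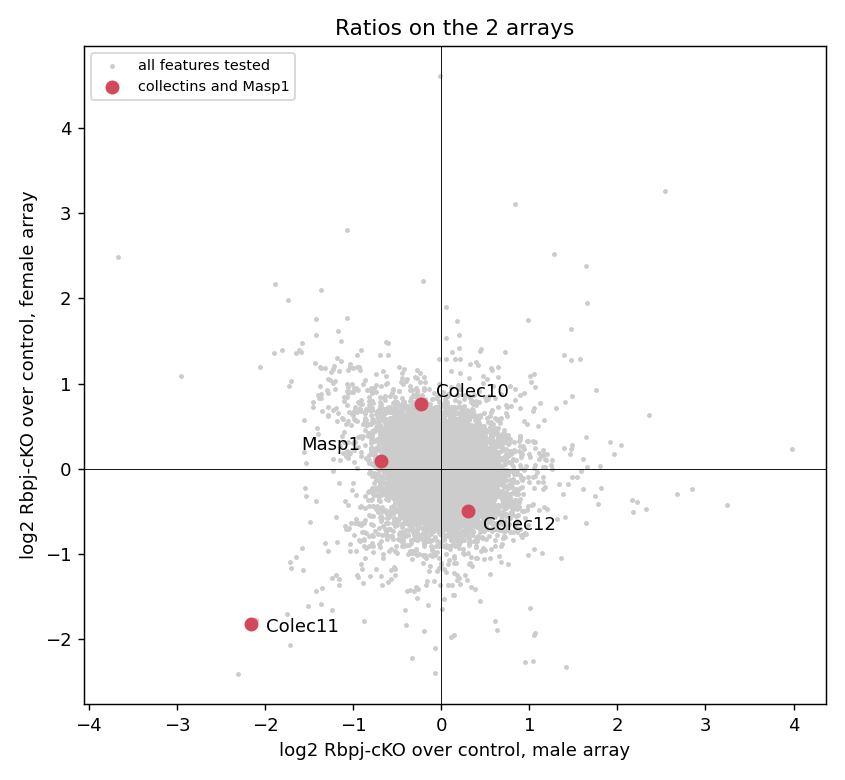
Log2 ratio of Rbpj-cKO over control on the male array (x axis) and the female array (y axis) for the 20989 features tested (grey) and the 4 genes (red). Colec11 lies at -2.16 and -1.82 in the corner of features lower on both arrays, and Colec10, Masp1 and Colec12 lie in quadrants where the arrays differ in sign.

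For Colec10, Masp1 and Colec12 the sign of the ratio was opposite on the 2 arrays, as it was for 58.6% of all features tested. Averaged over both arrays, the red channel over the green channel had a log2 difference of -0.49 for Colec10, -0.39 for the brighter Masp1 probe and 0.40 for Colec12, against -0.17 for Colec11. A red-green difference of at least this size was found for 4.40% of features in the case of Colec10, 8.62% for Masp1, 7.87% for Colec12 and 42.0% for Colec11. The green channel was thus the brighter one on both arrays for Colec10 and Masp1, and the red one for Colec12. Whether dye, sex or the tissue in each RNA accounts for these differences cannot be told apart in this design.

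Liver cell markers differed between the arrays in the same order as Colec10 and Masp1. The liver is a main source of both, as it is of Colec11. All 11 of 11 liver markers were measured, and 10 of them were lower in Rbpj-cKO ureters on the male array and higher on the female array; the transthyretin gene Ttr had the other order (0.08 and -0.04). Their median log2 ratio was -1.18 on the male array and 0.70 on the female array. Opposite signs, in either order, were found for 58.6% of all features tested. The order of the liver markers was also seen in 2 of 9 urothelial markers, and the reverse in 0. Albumin (Alb) had an intensity of 15140 on the male array and 52680 on the female array in Rbpj-cKO ureters, against 49030 and 25810 in control ureters. The summed level of the 11 markers was 140500 and 361000 in Rbpj-cKO ureters, against 290800 and 214800 in control ureters. These sums are weighted towards the brightest probes, such as those of Afp and Trf, as intensities are not comparable between probes. None of the 11 markers passed the limma test. The highest mean was that of the apolipoprotein Apoa2 (0.02) and the lowest that of the fibrinogen chain Fgb (-0.49). Of the 38 other lectin pathway and complement genes measured, 10 had the order of the liver markers, 9 had the reverse and 19 had the same sign on both arrays. From the 10, the 3 that differed most between the arrays were picked out after their values were seen, and the liver secretes them. C8b, a chain of the membrane attack complex, had -1.30 on the male array and 0.93 on the female array (log2 ratios), the protease Cfi had -0.995 and 0.90, and vitronectin (Vtn) had -1.28 and 0.62. The liver also secretes C3, which had a higher ratio on both arrays (0.32 and 0.62). So did the liver products Hc (0.07 and 0.79), C4b (0.12 and 0.30) and Mbl2 (0.06 and 0.48). Among the 9 with the reverse order were C1s2 (0.49 and -0.63), C1ra (0.59 and -0.45) and Clu (0.64 and -0.25). The part of liver RNA in the values of Colec10, Colec11 and Masp1 was not tested.

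**Figure D3:**
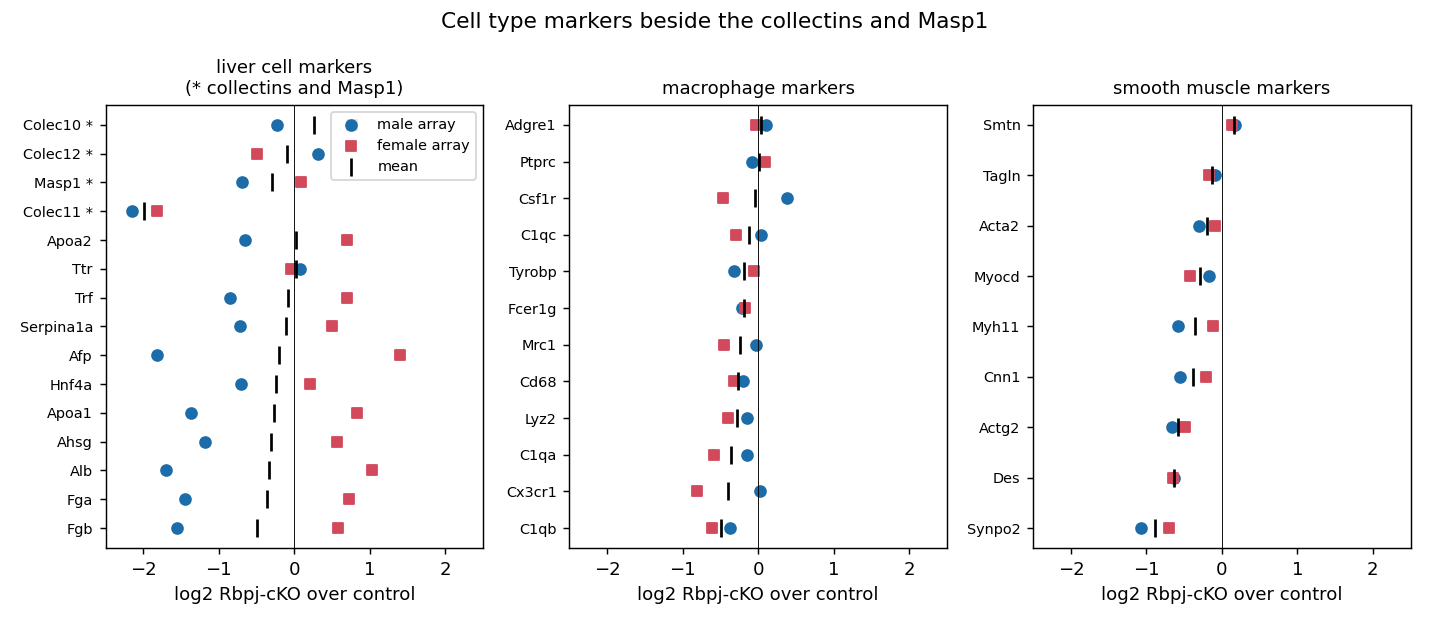
Log2 ratio of Rbpj-cKO over control on the male array (blue circles), the female array (red squares) and their mean (black bar) for the 4 genes (marked *) with the liver markers, and for macrophage and smooth muscle markers. For 10 of 11 liver markers the male point lies below 0 and the female point above 0, while both Colec11 points lie near -2.

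Other lectins and the protease Masp2 were also listed, beside Colec11, whose low ratio was known before the choice. Of 7 genes listed (other collectins, ficolins and Masp2), the collectins Mbl1, Sftpa1 and Sftpd did not pass the filter on dim probes, and the 4 others were measured. None of the 4 passed the limma test. The ficolin Fcna, which binds acetylated sugars, had the lowest ratio, -0.20 on the male array and -0.87 on the female array (mean -0.53). The mannose-binding lectin Mbl2 had the highest mean, 0.27, followed by the protease Masp2 with 0.19 and the ficolin Fcnb with 0.11, which was well above background in 3 of 4 channels.

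Complement components had ratios of mixed sign. Of 22 listed, 16 were measured and none passed, with 3 lower on both arrays, 5 higher on both and 8 of opposite sign. C3, the central component on which all pathways converge, had the highest mean ratio (0.32 on the male array and 0.62 on the female array, mean 0.47), and the C1q chain gene C1qb had the lowest (-0.37 and -0.61, mean -0.49). Of 21 complement regulators and receptors reported here, 18 were measured and none passed. Csmd1, a membrane protein with complement control repeats, had the highest mean (0.63 and 0.20, mean 0.41), and Cd59b, which blocks the membrane attack complex, the lowest (-0.03 and -0.62, mean -0.33).

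Taken over the 3 lists, 38 genes were tested of 50 reported, and 0 passed the limma test, where 0.124% of all features did. At an unadjusted p under 0.05 there were 3 of the 38 (C3, Fcna and C1qb), or 7.89%, against 3.37% of all features. The median log2 ratio of the 38 genes was 0.02, against 0.01 over all features, and 8 were lower on both arrays, 11 higher on both and 19 of opposite sign. None of the 38 was at least 1.5-fold lower on both arrays. The lists were chosen with earlier results of these data known, and C1qb among others also marks macrophages.

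**Figure D4:**
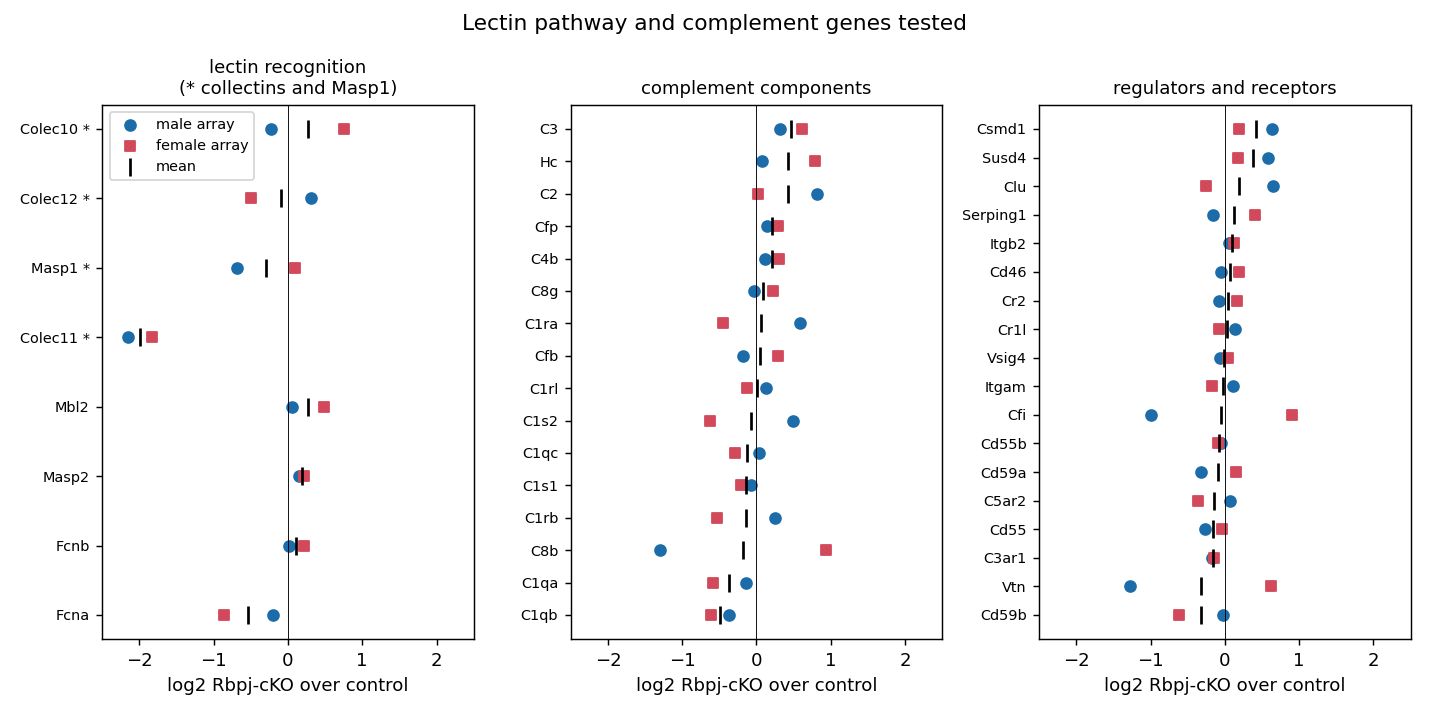
Log2 ratio of Rbpj-cKO over control on the male array (blue circles), the female array (red squares) and their mean (black bar) for the 4 genes (marked *) with other lectin pathway genes, for 16 complement components and for 18 regulators and receptors. Colec11 lies near -2 on both arrays, and the means of the 38 other genes lie between -0.53 (Fcna) and 0.47 (C3).

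Markers of cell types that the dissected tissue could hold are given for comparison with Colec11, which kidney and adrenal gland also express. Markers of both ureter layers were present, with 9 of 9 smooth muscle and 9 of 9 urothelial markers measured. Smooth muscle markers had a median log2 ratio of -0.35 (8 of 9 lower on both arrays, from Synpo2 at -0.89 to Smtn at 0.16) and a summed level of 659300 and 661900 in Rbpj-cKO ureters, against 835400 and 762300 in control ureters. Adrenal cortex markers (6 of 7 measured, Cyp11b1 not above background) had a median of -0.06, from Cyp21a1 at -0.26 to Mc2r at 0.26. Their summed level was 2306 and 3682 in Rbpj-cKO ureters, against 2941 and 2657 in control ureters. The opposite differences of these sums were largely those of Hsd3b1, with 469 and 1897 against 1213 and 840 (log2 ratios -1.37 and 1.18). Of 8 kidney tubule markers, Umod, Slc12a1, Slc34a1 and Slc12a3 were not above background, and the 4 measured had a median of 0.14, from Lrp2 at -0.24 to Cdh16 at 0.75. Their summed level was 3789 and 3649 in Rbpj-cKO ureters, against 3605 and 2655 in control ureters.

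Adventitial fibroblast markers (10 of 11 measured) had a median of 0.01, from Dpt at -1.05 to Dcn at 0.34, and a summed level of 862000 and 836200 in Rbpj-cKO ureters, against 782700 and 859100 in control ureters. Macrophage markers (12 of 12) had -0.21, from C1qb at -0.49 to Adgre1 at 0.04, with sums of 153600 and 133600 in Rbpj-cKO ureters, against 157400 and 166900 in control ureters. Endothelial markers (8 of 8) had -0.07, from Tek at -0.41 to Cdh5 at 0.17, with sums of 53970 and 54840 in Rbpj-cKO ureters, against 58300 and 60950 in control ureters. Mesothelial markers (7 of 7) had 0.31, from Lrrn4 at -0.31 to Muc16 at 0.49. Their sums were 187000 and 210000 in Rbpj-cKO ureters, against 172700 and 152300 in control ureters. Most of these sums came from Krt19, also a urothelial keratin (133900 and 164600, against 133300 and 108200), whose mean ratio was the median. Urothelial markers had 0.22, from Shh at -0.12 to Krt5 at 0.55, with sums of 828300 and 886100 in Rbpj-cKO ureters, against 685600 and 735200 in control ureters. Nerve and glial markers (7 of 8) had -0.08, from Th at -0.59 to Tubb3 at 0.21, with sums of 17750 and 19550 in Rbpj-cKO ureters, against 17870 and 32290 in control ureters. None of these markers passed the limma test. Each summed level in this and the preceding paragraph is weighted towards the brightest probes of its list. The part of cell composition in the Colec11 value was not tested.

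The features whose pair of ratios lay nearest to that of Colec11 were, by Euclidean distance on the log2 scale over 2 arrays, Wfdc18 (0.08), the calmodulin-binding peptide gene Pcp4 (0.43), the cardiac myosin gene Myh6 (0.60), the chemokine gene Ccl11 (0.68), Rergl (0.80) and the melanocortin receptor gene Mc4r (0.82). Wfdc18, which has a whey acidic protein domain, had an intensity of 506 and 543 in Rbpj-cKO ureters, against 2174 and 1852 in control ureters. Its log2 ratio was -2.10 on the male array and -1.77 on the female array, beside -2.16 and -1.82 for Colec11. The likeness rests on 2 pairs of values and is a description.

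The targeted gene Rbpj was lower on each array at both of its probes. The log2 ratios were -1.58 (male) and -0.93 (female) at the brighter probe, and -0.42 and -1.12 at the dimmer one. It is not known here whether cre removes the stretch under either probe, so these ratios are no check of the labels.

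The 250 bases before the annotated start of Colec11 (RefSeq, chr12:28623331-28623580 in GRCm38.p6, minus strand) are shown because RBPJ binds a known core motif and Colec11 was the gene of the family with a low ratio on both arrays. Capitals mark the match to GTGGGAA on the other strand, which contains the shorter core TGGGAA.
Colec11 promoter: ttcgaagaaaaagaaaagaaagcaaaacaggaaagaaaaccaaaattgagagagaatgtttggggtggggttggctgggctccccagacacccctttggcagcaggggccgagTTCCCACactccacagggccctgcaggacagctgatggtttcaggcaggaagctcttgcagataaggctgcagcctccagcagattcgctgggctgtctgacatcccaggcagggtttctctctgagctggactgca
There was 1 match to either motif in the 300-base window, which runs 50 bases past the start. Counting both strands, TGGGAA was found in 25.6% and GTGGGAA in 6.38% of 32851 windows of this length in the table, and any GTGGGAA match is also a TGGGAA match. The match is a description of the sequence, and RBPJ binding was not measured.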

How the data were processed

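Spot intensity values were read from the deposited scanner files, which come from Agilent Feature Extraction 10.7.3.1, as the submitters' processing notes record. The mean and local background columns are raw intensity, and the processed columns are intensity that the software has background-subtracted and dye-normalized, per the file headers. A deposited log10 ratio (red to green) is there too, per the file headers. The value table of the series was deposited as a score for each probe, with no account of how it was made. Read as a signed fold with Rbpj-cKO on top, it matched the processed signals within 0.01 (log2) for 98.9% of 25918 kept single-spot probes on the male array and 99.0% on the female array, with column medians of 1.

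Mean signals were corrected with normexp (offset 50) and normalized by loess within arrays, with control spots at weight 0. Outlier spots were left out. Probes well above background on both arrays in either genotype were kept, and a gene was represented by its brightest probe. Levels shown are after Aquantile scaling. Ratios were tested with limma 3.58.1 (R 4.3.3), lmFit and eBayes, two-sided, over 20989 features, with 1 residual and 10.3 prior degrees of freedom. The fit was tested on simulated data with noise drawn separately for each array. It recovered the simulated ratios without a large bias, but the share of false calls was above the threshold of 0.05, so the adjusted p-values are optimistic. The number of arrays limits the precision.

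Genes named are the 4 members, the highest and lowest of each list and any gene past the test. The 6 features with a recognised gene symbol nearest to Colec11, and Rbpj, are named too. Others named with values (Alb, Ttr, C8b, Cfi, Vtn, Hc, C4b, C1s2, C1ra, Clu, Masp2, Fcnb, Hsd3b1 and Krt19) were chosen after their values were seen. Members and lists were chosen with earlier results of these data known, and some list genes are not reported here. Alternatives changed the background correction, scaling, signals, dim-probe filter, probe choice and prior variance. Both arrays were on the same slide, so it was not tested as a batch.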

Additional observations from a re-analysis of the deposited data

Results flagged for a closer look

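For 3 of the 4 genes the ratio had opposite signs on the male and the female array, with 1 array each, and the difference was not tested. The male minus female log2 ratio was -0.99 for Colec10, -0.78 for Masp1 and 0.81 for Colec12. The dye orientation changes with sex, so these cannot be told apart.

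The same was seen among the marker and pathway genes named, again untested. The difference was -1.35 for Apoa2, -2.14 for Fgb, -0.52 for Clec1b and -1.22 for Shh, 2.64 for Lrrn4, 1.39 for Muc16, 2.40 for Th and 1.13 for Tubb3, and 0.66 for Cxcl16, 0.38 for Cdh5 and 0.12 for Adgre1. Medians of lists with opposite signs differed by -1.88 for liver markers, 0.71 for mesothelial, 0.43 for nerve and glial, 0.21 for fibroblast and 0.083 for endothelial markers. They differed by 0.14 for complement components, -0.14 for complement regulators and receptors, 0.059 for scavenger receptors and 0.17 for neural crest genes.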

How the results depend on the processing

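The mean ratio of Colec11 was -1.99. It was -2.17 with plain background subtraction, -2.05 with normexp offset 16, -1.94 with median centring and -2.14 with the scanner's processed signals. Each of these moved it by less than the spread between arrays (SD 0.23). The other alternatives that gave it a value are no separate check. Colec11 has 1 probe to average, and the series value table repeats the processed signals. With 1 array left out, the value is the ratio of the other array. The means of Colec10, Masp1 and Colec12 kept their sign under the same changes of background correction, scaling and signals. They too moved by less than the spread between arrays. Averaging probes could not change them, as each gene had 1 probe past the filter. Their signs differed between the arrays, so a turn with 1 array left out was fixed in advance. Colec10 ranged from -0.23 (without the female array) to 0.76 (without the male). Masp1 ranged from -0.69 (without the female) to 0.095 (without the male), and Colec12 from -0.50 (without the male) to 0.31 (without the female). These are values with no test, as 1 array leaves no residual degrees of freedom. The number of features past the limma test was 26. It was 0 with median centring (226 at an unadjusted p under 0.05), with the series value table (817) and without a filter on dim probes (979), 2 with Agilent's processed signals, 10 where the probes of each gene were averaged, 16 with plain background subtraction, 41 where the prior variance followed intensity and 42 with every probe tested. The cause was not tested. Apart from Colec11, none of the 38 other lectin pathway and complement genes measured passed under the 10 alternatives run. Both arrays hold both genotypes, so the channels of an array are already paired in the ratio. With 2 arrays, differences of the size seen for Colec10, Masp1 and Colec12 cannot be set apart from the spread between them.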

Other observations

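Other lectins, scavenger receptors and neural crest genes were also compared, since Colec12 is a scavenger receptor and the secreted collectins bear on neural crest migration. Of 17 scavenger receptor genes 15 were measured, with a median log2 ratio of 0.03, from Msr1 at -0.51 (-0.05 on the male array and -0.97 on the female array) to Cxcl16 at 0.32. Of 20 other C-type lectin genes 18 were measured, with a median of -0.13. The lowest was Clec2d, with -0.41 on the male array and -1.65 on the female array (mean -1.03, limma adjusted p = 0.442), and the highest the platelet receptor gene Clec1b at 0.25. Of 18 neural crest genes 17 were measured, with a median of -0.03, from the transcription factor Twist1 at -0.51 (mean over both arrays) to the growth factor Nrg1 at 0.65. None of these genes passed the limma test.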
